A study of Caenorhabditis elegans with 2 samples.

Results

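The regions described here are 537 peaks of CEH-9 chromatin immunoprecipitation sequencing (ChIP-seq) that lie inside introns, far from any start of transcription. They were chosen from the pooled peak list of 30000 entries, ranked by the authors' peak signal. Ranks 1 to 3000 were kept, and a peak was a member when its summit lay in a protein-coding gene, in no exon of a protein-coding gene, over 1 kb from every protein-coding transcription start site (TSS) and over 100 bp from any tRNA, snoRNA, snRNA or related small RNA gene. The choice therefore used the pooled signal and the position, and neither is a finding below. The other classes of the same 3000 peaks were 883 in coding exons, 847 within 1 kb of a TSS, 473 between genes, 232 at small RNA genes and 28 in untranslated exons.

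ChIP-seq enriches DNA bound by a protein, here with an anti-GFP antibody, and sequences it. The worms were strain OP202, which carries the unc-119(ed3) allele on chromosome III and the integrated transgene wgIs202, whose product is CEH-9 with GFP and FLAG at its C-terminus. Both samples were whole late embryos of mixed sex, 4.75 h after synchronization by bleaching of eggs, and they are 2 biological replicates of the only group. The sources used here do not name the promoter of the transgene, and whole embryos were used, so the cells in which a region was bound were not resolved.

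CEH-9 is a homeodomain transcription factor. Homeodomains read short sites built around a TAAT core, and such factors act through promoters and through enhancers, which in Caenorhabditis elegans often lie in the longer introns of developmental genes. ChIP-seq in this animal also recovers DNA for reasons other than a factor's own motif, for example at tRNA genes, whose internal B box is bound by a general RNA polymerase III factor, and in GC-rich or repeated DNA.

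The sequences below are read from the RefSeq copy of the genome, assembly WBcel235, the same as ce11. Each runs 75 bp to each side of a summit unless stated, and they were picked after their values were seen, to show the kinds of DNA found in the members. The first pair lie in reproducible members with much CG dinucleotide, which the capitals mark.
pde-4, chrII:7635399-7635549, plus strand: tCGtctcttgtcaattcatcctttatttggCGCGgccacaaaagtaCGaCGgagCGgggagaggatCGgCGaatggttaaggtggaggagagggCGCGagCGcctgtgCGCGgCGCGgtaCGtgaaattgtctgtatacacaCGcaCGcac
Y62E10A.13, chrIV:13395349-13395499, plus strand: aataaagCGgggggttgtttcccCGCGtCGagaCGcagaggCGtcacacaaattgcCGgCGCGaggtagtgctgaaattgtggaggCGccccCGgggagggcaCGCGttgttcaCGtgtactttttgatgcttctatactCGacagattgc
The next pair are reproducible members with a homeodomain core, in capitals. It is TAATTG in trpa-1, read on the minus strand, and TAATTA in srh-233.
trpa-1, chrIV:11872053-11872203, plus strand: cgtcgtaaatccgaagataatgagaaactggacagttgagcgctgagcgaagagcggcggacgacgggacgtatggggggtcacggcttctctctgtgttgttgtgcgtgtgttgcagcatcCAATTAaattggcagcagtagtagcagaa
srh-233, chrV:20051694-20051844, plus strand: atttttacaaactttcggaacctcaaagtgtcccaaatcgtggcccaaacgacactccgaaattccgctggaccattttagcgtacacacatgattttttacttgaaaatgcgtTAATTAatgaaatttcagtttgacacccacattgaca
The next sequence shows the telomere-type unit TTAGGC in an intron of F09E10.6, with 11 copies, which read GCCTAA on the strand printed.
F09E10.6, chrX:1496075-1496225, plus strand: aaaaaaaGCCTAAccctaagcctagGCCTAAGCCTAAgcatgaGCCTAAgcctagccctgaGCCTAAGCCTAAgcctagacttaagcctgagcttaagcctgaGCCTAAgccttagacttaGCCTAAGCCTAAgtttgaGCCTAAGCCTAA
The intron of rga-4 holds 4 copies of the unit CCGGCAAA, which read TTTGCCGG here.
rga-4, chrV:1377554-1377704, plus strand: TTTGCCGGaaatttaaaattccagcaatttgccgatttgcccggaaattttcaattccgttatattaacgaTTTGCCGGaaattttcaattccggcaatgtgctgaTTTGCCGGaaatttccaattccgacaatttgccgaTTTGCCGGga
The last sequences show a tRNA-type B box away from an annotated tRNA gene. The capitals mark the form GGTTCGA, any 2 bases and CC in Y57G11C.22, where it matches on both strands, and the shorter GTTCNANNC in the 72 bp tRNA pseudogene that lies at the summit in unc-104.
Y57G11C.22, chrIV:14838327-14838477, plus strand: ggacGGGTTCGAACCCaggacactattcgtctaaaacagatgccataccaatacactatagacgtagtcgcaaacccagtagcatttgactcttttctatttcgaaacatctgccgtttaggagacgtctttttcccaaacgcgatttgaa
unc-104, tRNA pseudogene, chrII:7001627-7001698, plus strand: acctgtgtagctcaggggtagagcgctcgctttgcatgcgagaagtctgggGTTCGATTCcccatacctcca

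The members were at the low end of what the word strong could cover. Their signal ran from 89.7, in unc-104, to 45.0 with a median of 50.8, on a scale where the strongest peak of the list had 416 and the weakest 22.5. The authors' −log10 q per peak had a median of 0.502 and a range from 0.354 to 2.487. A q of 0.05 or less was listed for 38 members, 7.08%, beside 7.15% of the 2768 strongest peaks away from small RNA genes and 11.4% of all 3000. The limit itself passed through a dense part of the list. Just inside it were summits in hda-10 (rank 2988), Y56A3A.7 (rank 2998) and col-71 (rank 3000, signal 45.019), and just outside it summits in bgnt-1.1 (rank 3003, signal 45.016), W05F2.7 (rank 3012) and hot-8 (rank 3018). At the TSS limit, affl-1 at 1004 bp, srt-30 at 1021 bp and Y39E4B.6 at 1024 bp were kept, while C34E7.3 at 999 bp, F16G10.10 at 989 bp and obr-1 at 984 bp were not.

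The replicates shared only part of the members. A replicate was called strong at a member when one of its own 3000 strongest peaks had its summit within 100 bp. Replicate 1 was strong at 179 members (33.3%), beside 26.6% of the 2768 peaks away from small RNA genes and 29.8% of all 3000. Replicate 2 was strong at 267 members (49.7%), beside 53.4% and 55.5%. Both were strong at 55 members, 10.2%, against a background of 9.28% away from small RNA genes and 12.9% over all 3000. The share in both was therefore near the background, and most members passed this rank limit in 1 replicate only: 124 were strong in replicate 1 alone, 212 in replicate 2 alone and 146 in neither. In looser terms, a summit of any rank lay within 100 bp for 388 members in replicate 1, with a median rank of 3996, and for 483 members in replicate 2, with a median rank of 2629, and 12 members had none in either list. The same share for both replicates was 12.6% at peaks within 1 kb of a TSS, 7.61% between genes and 6.68% in coding exons. The pooled list comes from the same libraries, so these shares are a description and not an independent test.

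**Figure D1:**
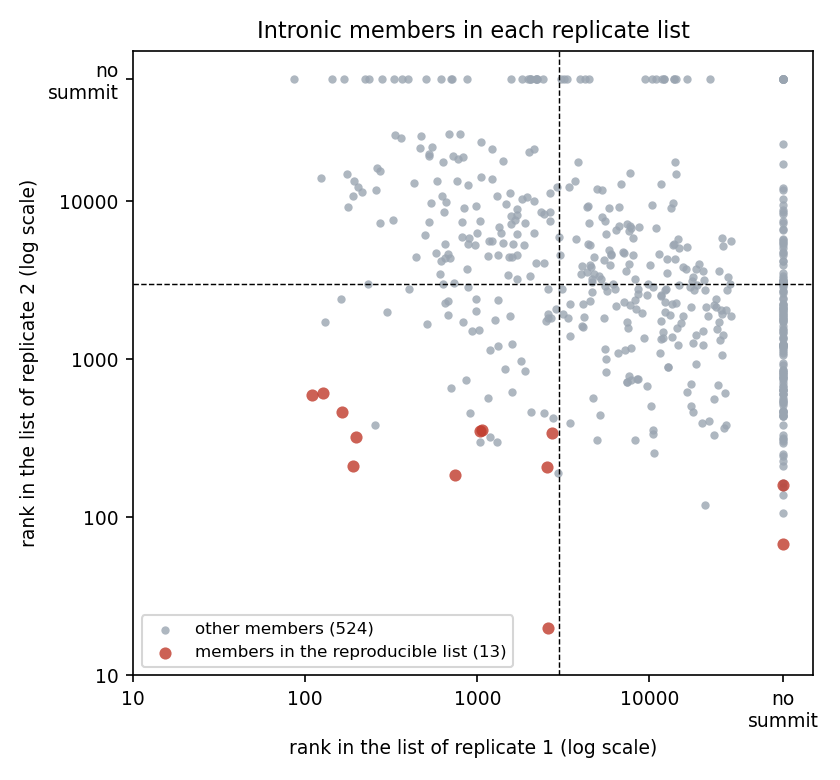
Rank of each of the 537 members in the replicate 1 list (horizontal, log scale) and in the replicate 2 list (vertical, log scale), with members lacking a summit within 100 bp placed on the outer lines. Dashed lines mark rank 3000, and the 13 members of the reproducible list, in red, all lie below rank 3000 of replicate 2, but 2 of them have no summit in replicate 1.

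The authors' reproducible list holds 207 peaks, which are the 207 strongest of the pooled list. It contains 13 members, or 2.42%, beside 2.82% of the peaks away from small RNA genes and 6.9% of all 3000. Their median −log10 q was 2.08. All 13 were strong in replicate 2 and 11 of the 13 in replicate 1. They fall in genes of varied roles and are taken below in an order chosen for reading, which is no grouping by a list.

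In unc-104, the kinesin that carries synaptic vesicle precursors, the summit was in intron 4 of 21, with rank 109 in replicate 1 and rank 596 in replicate 2. In pde-4, a cyclic AMP phosphodiesterase, it was in intron 1, of 7825 bp, at ranks 127 and 611. In trpa-1, a TRPA-type cation channel, it was in intron 5, of 5929 bp, at ranks 1059 and 360. These summits were high in both lists, and the first pair ranked higher in replicate 1. In plx-1, a plexin that receives semaphorin guidance signals, the ranks were 2526 and 207, in intron 2 of 23. In tpa-1, a protein kinase C, no summit lay within 100 bp in replicate 1 and the rank in replicate 2 was 160. The latter pair thus ranked far higher in replicate 2.

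In let-526, a subunit of the SWI/SNF chromatin remodeller, the summit was in intron 1, 1079 bp from the nearest TSS, at ranks 745 in replicate 1 and 185 in replicate 2. In cye-1, the cyclin E gene, the ranks were 2568 and 20, which was the highest place of any member in either replicate. That summit lay 107 bp from a small RNA gene, only just outside the distance that the rule sets. In ppfr-1, a regulatory subunit of protein phosphatase 4, replicate 1 had no summit and replicate 2 had rank 68.

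The other 5 lay in hmt-1, an ATP-binding cassette transporter for heavy metal tolerance, in pqn-41, which encodes a glutamine-rich protein, and in srh-233, marc-5 and Y62E10A.13. The hmt-1 summit was in its last intron at ranks 189 in replicate 1 and 210 in replicate 2. The pqn-41 summit was in a 7776 bp intron at ranks 197 and 324, and that of Y62E10A.13 was in intron 1 of 3 at ranks 164 and 466. These 3 were close in rank between the replicates. The summit of srh-233, a predicted chemoreceptor gene, had ranks 1036 and 351, and that of marc-5, a MARCH-type ubiquitin ligase gene, had ranks 2709 and 342.

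The next members in rank, outside the reproducible list, were less even. The summit in F07A11.1 (rank 216 of the pooled list) had rank 716 in replicate 1 and none in replicate 2. That in lin-14, a heterochronic gene that sets the timing of larval fates, was in intron 3, of 11174 bp, with none in replicate 1 and rank 706 in replicate 2. For the neprilysin-type peptidase genes, nep-20 had ranks 20958 and 120, and nep-18 had none in replicate 1 and rank 107 in replicate 2. Of these, each was high in 1 replicate only. The summits of Y6B3B.1 (1189 and 323), ksr-2 (1157 and 572), a scaffold of Ras signalling, and eat-20 (1032 and 301), a pharyngeal membrane protein gene, were in the upper 3000 of both. A wide split was also seen in usp-39, where a summit of pooled rank 2346 had rank 86 in replicate 1 and none in replicate 2.

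The DNA at the members was richer in G and C than that of weaker intronic summits. The median GC content of the window, 75 bp to each side of the summit, was 43.0% (quartiles 37.1% to 48.3%), against 37.7% for the 5196 summits beyond rank 3000 that met the same position rule and 33.1% for 391619 positions taken every 50 bp over all introns that meet it (19.6 Mb). Windows over 50% GC made up 19.7% of the members, 7.08% of the weaker summits and 2.21% of intronic positions. At 8 of the 13 reproducible members the window exceeded 50%, and their median was 51.7%. The whole host introns differed as well, with medians of 37.4% for members and 34.9% for weaker summits. The window had a median of 4.71 percentage points more GC than its own intron in members and 3.09 points in weaker summits. It exceeded its own intron in 423 members (78.8%) and in 70.0% of weaker summits. Without replicate 1, that is with the list of replicate 2 alone ranked in place of the pool, the median was 42.4%, and without replicate 2 it was 40.4%. Other strong peaks had medians of 42.4% within 1 kb of a TSS, 44.4% between genes and 47.7% in coding exons, so the members lay between them. GC content can itself change the yield of sequencing libraries, and its part in these ranks was not tested.

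**Figure D2:**
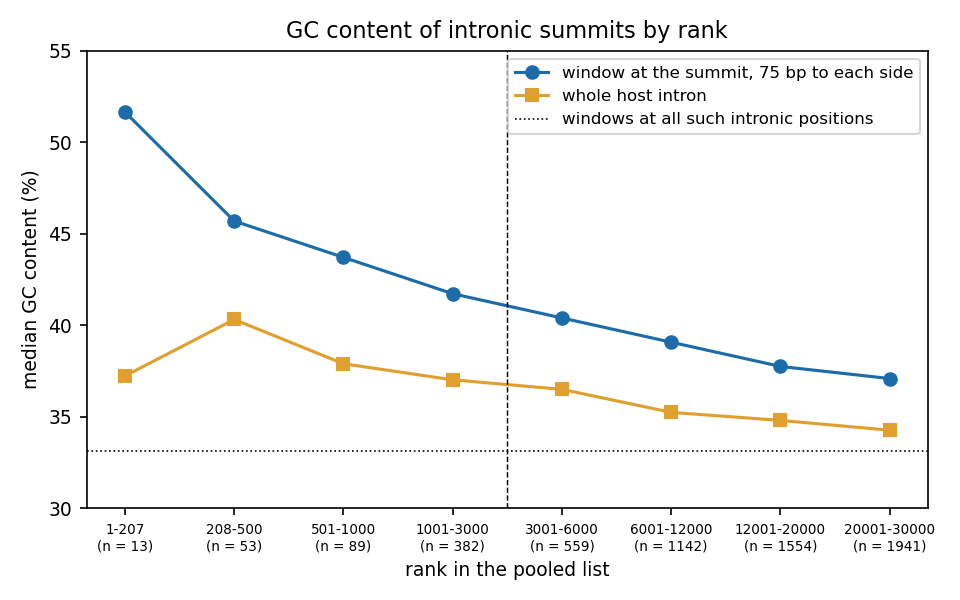
Median GC content (vertical, %) of the window (75 bp to each side of the summit) and of the whole host intron for intronic summits in 8 bands of pooled rank (horizontal), with the number of summits under each band and the dashed line at rank 3000. The window median goes down with rank from 51.7% in ranks 1 to 207 to 37.1% in ranks 20001 to 30000, while the intron median lies between 40.3% and 34.3%, and the dotted line marks the 33.1% of all such intronic positions.

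The plot of GC content by rank shows that the step at rank 3000 is part of a gradual trend. The median window was 41.7% in ranks 1001 to 3000 and 40.4% in the next band, to rank 6000. The choice of 3000 thus separates no distinct group by this measure.

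Homeodomain cores were not more frequent in the members. On either strand, TAATTA was found in 4.47% of member windows, 5.58% of weaker summits and 7.61% of intronic positions. TAATTG was found in 8.19%, 9.70% and 11.7%. Either core occurred in 67 members (12.5%), in 14.5% of weaker summits and in 18.2% of positions. Of the 13 reproducible members 2 held one, trpa-1 and srh-233, printed above. TAATGA was held by 5.77% of members and 8.84% of positions, and TAATGG by 3.54% and 4.53%. Any of the 4 was in 20.1% of members, 22.6% of weaker summits and 28.6% of positions. The cores are AT-rich while the member windows had more GC, whose part in the counts was not tested, and the counts say nothing about the factor.

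Other words searched on both strands were mostly near the level of weaker summits. GAGAGA was in 8.94% of members, 7.81% of weaker summits and 6.32% of intronic positions, and in 18.6% of strong intergenic peaks. GCGCGC was in 2.61%, 2.16% and 1.20%, and in 5.79% of strong peaks within 1 kb of a TSS. CACGTG was in 2.79%, 2.50% and 2.06%, CAGCTG in 2.42%, 3.39% and 2.17%, and AGTGGT in 5.40%, 4.21% and 4.36%. The AT-rich words ran the other way, with TGATAA in 6.33% of members, 8.29% of weaker summits and 12.4% of positions. A run of 8 T or A was in 14.0%, 20.9% and 26.0%. No match or its absence is a statement on binding.

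Repeat units appeared in the windows of some members, and they were searched for after the windows had been read. CCGGCAAA was in 53 members (9.87%), beside 6.22% of weaker summits and 2.66% of intronic positions, and 33 members held at least 2 copies. With the list of replicate 1 alone its share was 7.34%, beside 4.43% of weaker summits. With that of replicate 2 alone it was 8.89%, beside 5.95%, and in ranks 1 to 1000 of the pool 14.2%, beside 6.35%. In rga-4 (pooled rank 414) the 4 copies went with rank 20184 in replicate 1 and rank 396 in replicate 2. In fbxa-61 the ranks were 161 and 2406. At least 3 units of TTAGGC, the repeat of worm telomeres, were in 22 members (4.10%), beside 1.94% of weaker summits and 0.59% of positions, and beside 3.66% of strong peaks near a TSS and 3.59% between genes. With the list of replicate 1 alone the share was 2.62%, beside 1.69% of its weaker summits, and with that of replicate 2 alone 4.65%, beside 1.71%. Where the whole peak had to avoid exons it was 2.37%, beside 2.09%. In ZK131.11, with 9 units, the ranks were 299 in replicate 1 and 2000 in replicate 2, and in F09E10.6, with 11, they were 4629 and 2661. The unc-25 intron, in the gene for the enzyme that makes the neurotransmitter GABA, held 8 units at ranks 9693 and 676. The repeats therefore occurred at members of either replicate.

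The tRNA-type B box marked a small set. Its strict form was also searched for only after the windows had been read, so its share among members is a description. The looser form was among the first motifs. The strict form, GGTTCGA followed by any 2 bases and CC, was in 13 members (2.42%), 0.654% of weaker summits and 0.26% of positions, and in 33.2% of the strong peaks at small RNA genes, which were left out by the rule. The looser form GTTCNANNC, of which the strict one is a special case, was in 6.70%, 4.93% and 4.44%. The strict form lay in unc-104, Y6B3B.1, Y57G11C.22, lin-8, dpy-21, Y69A2AR.31, Y43F8C.3, Y41D4B.6, kcnl-1, vab-19 and Y43F8B.3, and in a pair of neighbouring members of hmr-1. Only the unc-104 summit was within 100 bp of an annotated tRNA pseudogene. In Y57G11C.22 the ranks were 706 in replicate 1 and 659 in replicate 2. This count depended on the libraries together: with the list of replicate 2 alone the share was 0.606%, beside 0.616% in its weaker summits, and with that of replicate 1 alone 1.22%, beside 0.609%.

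Repeated DNA in general was about as frequent over all members as at weaker summits, but more frequent in ranks 1 to 1000. A word of 36 bases found again in the genome was present in 93 member windows (17.3%), in 17.1% of weaker summits and in 21.4% of intronic positions, and in 11.1% of strong peaks near a TSS and 13.5% between genes. A read of 36 bases, an assumed length, that matches such a word cannot be placed with certainty. In ranks 1 to 1000 the share was 24.5%, beside 16.9% of the intronic summits beyond rank 1000.

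**Figure D3:**
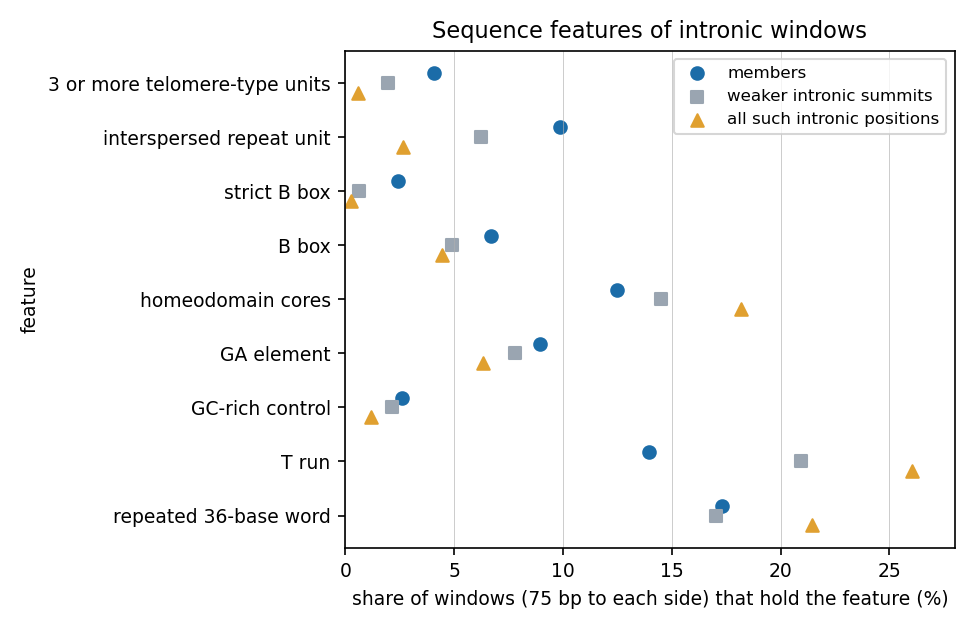
Share of windows of 75 bp to each side (horizontal, %) that hold each sequence feature (vertical) for members (circles), weaker intronic summits (squares) and all such intronic positions (triangles). Telomere-type units are at least 3 TTAGGC, the interspersed unit is CCGGCAAA, the strict B box is GGTTCGA, any 2 bases and CC, the other GTTCNANNC, the homeodomain cores are TAATTA or TAATTG, the GA element is GAGAGA, the GC-rich control GCGCGC and the T run 8 T. Members lie to the right of both other sets for the repeat units and B boxes and to the left for the homeodomain cores and T runs. The repeat units and the strict B box were searched for after the member windows had been read.

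The place of the members in their introns was as follows. They lay in a first intron in 113 cases (21.0%), beside 18.2% of weaker summits and 17.3% of intronic positions. The host intron had a median length of 1290 bp, beside 1113 bp and 1115 bp, and introns of 5 kb or more held 23.3% of members, 17.7% of weaker summits and 15.9% of positions. The median distance to the nearest splice site was 349 bp, against 246 bp and 249 bp. Members thus lay in somewhat longer introns and farther from splice sites than weaker summits. The median distance to the nearest TSS was 2322 bp, against 2293 bp and 2240 bp. Where the whole peak, not only its summit, had to avoid exons, 337 members were left, with a median intron of 3428 bp and 31.5% in a first intron, and the weaker summits under the same condition had 2641 bp and 30.4%.

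Chromosome III carried 143 members, 26.6%, beside 20.9% of weaker summits and 17.6% of intronic positions. The X chromosome carried 70 (13.0%), beside 13.8% and 16.8%. Strong peaks within 1 kb of a TSS had 20.7% on chromosome III and those between genes 15.6%. The share on III was lower in either replicate's list taken alone: with replicate 2 alone it was 20.8%, beside 20.9% in its weaker summits, and with replicate 1 alone 24.0%, beside 20.7%. The outer 25% at each end of the chromosomes, roughly the arms, held 71.9% of members, 67.4% of weaker summits and 59.1% of positions.

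**Figure D4:**
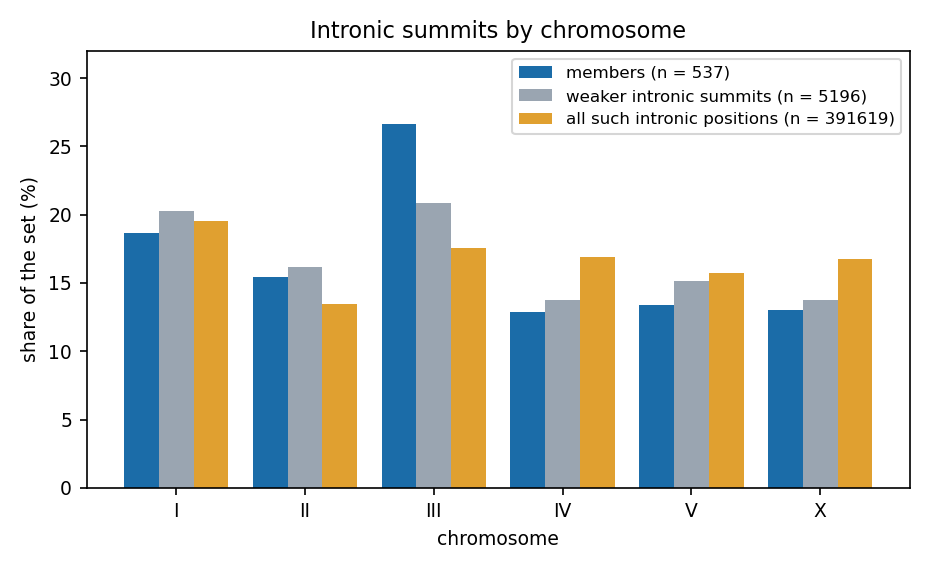
Share (vertical, %) of members (blue), weaker intronic summits (grey) and all such intronic positions (orange) on each chromosome (horizontal). Bars start at 0, and chromosome III has 26.6% of members against 20.9% and 17.6%, with the other chromosomes closer together.

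Other non-coding genes lay close to some members. Within 100 bp of the summit there was an annotated non-coding RNA gene other than those in the rule, or a pseudogene, for 53 members (9.87%) and for 5.00% of weaker summits. Among the 13 reproducible members it was 5, namely unc-104, pde-4, trpa-1, ppfr-1 and let-526. At daf-2, the insulin receptor gene (pooled rank 240, ranks 1321 and 2361 in the replicates), it was the long non-coding RNA linc-143, and the window was only 29.1% GC. At gcn-1 it was the microRNA gene cel-mir-229.

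The 537 members fell in 455 host genes, 3.69% of the 12332 protein-coding genes with an intron position that could qualify. A single member was found in 399 of them, and 56 genes held at least 2, together 138 members. Overlap was small, with 20 members overlapping another and 527 separate regions in all. The classical cadherin gene hmr-1 held the most, 6 members in 3 introns, but its best rank was 1410, none of its members was in the upper 3000 of replicate 1 and it has 41.9 kb of qualifying intron and 22 weaker summits besides. The spectraplakin gene vab-10 held 5 with a best rank of 490, in a gene of 57.6 kb. The pqn-41 gene held 5, at pooled ranks 126, 337, 784, 1382 and 2189.

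A shorter gene could hold several members too. In hmt-1, a gene of 8.42 kb with 5 kb of qualifying intron, there were 4 members, at ranks 156, 372, 808 and 2063, in 2 neighbouring introns. They formed pairs of overlapping peaks, and hmt-1 had only 2 weaker intronic summits. The 4 members of ppfr-1, a longer gene of 25.9 kb, had pooled ranks 148, 1056, 1329 and 1526, in 2 introns. The first 3 held 1 replicate each in the upper 3000. The 4 of kal-1, the anosmin gene of neuronal and epidermal development, of 13.6 kb, had ranks 721, 783, 824 and 1647. Over all introns there were 27.4 members and 265 weaker summits per qualifying Mb. The tagged gene itself, ceh-9, held no member and has 50 bp of qualifying intron, and unc-119 held none in 1900 bp.

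**Figure D5:**
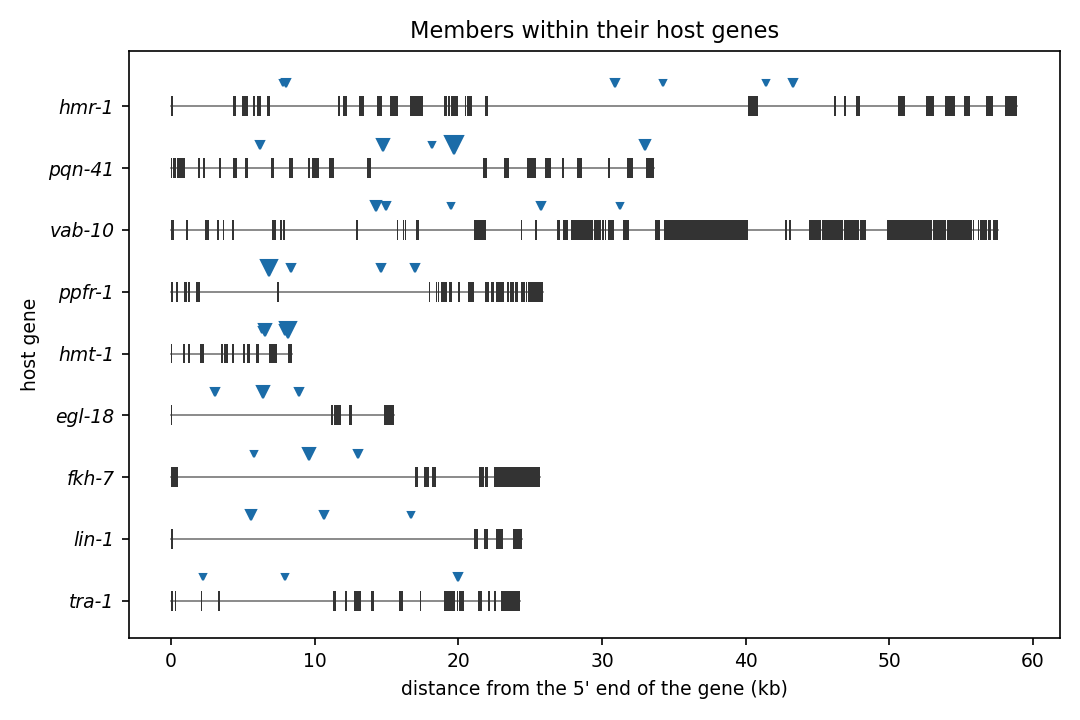
Members (triangles, larger for a stronger pooled signal) and exons (dark blocks) along 9 host genes, with distance from the 5' end of the gene in kb on the horizontal axis and the genes on the vertical axis. The members of egl-18, fkh-7 and lin-1 each lie in 1 long intron, those of hmt-1 lie in pairs near its 3' end, and the 6 of hmr-1 are spread over 3 introns.

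A mixed list of developmental transcription factors, of bHLH, forkhead, ETS, GATA and other families, had the highest density among the 11 lists. Its hosts were egl-18, fkh-7, lin-1, tra-1 and daf-16, with 3 members each, and ast-1, daf-12, fkh-9, unc-3 and skn-1. No host had an hlh name of the bHLH family, and daf-12 was not counted with the nuclear hormone receptors. The density is that of the mixture and cannot be read for each named family. Of 63 genes of this list with a qualifying intron, 10 held a member (15.9%, beside 3.69% of all genes). They held 20 members, 85.6 per qualifying Mb, against 27.4 over all introns. Their weaker summits were also dense, at 364 per Mb against 265. The forkhead gene fkh-7 had 3 members in its 16465 bp intron 1, and its best, pooled rank 411, had ranks 911 in replicate 1 and 455 in replicate 2. The GATA factor gene egl-18, which acts in epidermal seam cells and vulval fates, had 3 in an 11092 bp first intron, the best at ranks 10456 and 356. The ETS gene lin-1, a target of Ras signalling, had 3 in a 20948 bp intron, the best with none in replicate 1 and rank 532. Of these best members only that of fkh-7 was strong in both replicates, but another lin-1 member, of pooled rank 1396, was so too. The sex-determination gene tra-1 had 3 members, of pooled ranks 1049, 2241 and 2702. The list held 18 members and 78 weaker summits with replicate 2 alone, beside 495 and 5194 over all introns. With replicate 1 alone it held 11 and 89, beside 572 and 5257. In ranks 1 to 1000 of the pool it held only 3 members and 102 weaker summits, beside 155 and 5578. The higher density was thus not clear among the strongest peaks or with replicate 1 alone.

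Axon guidance and cell adhesion genes had the largest share of host genes among the 11 lists. Of 99 such genes, 19 held a member (19.2%, beside 3.69% of all genes). The list had 30 members, or 57.8 per qualifying Mb against 27.4 over all introns. Its weaker summits were also dense, at 390 per Mb against 265. Members made up 12.9% of its intronic summits, against 9.37% of all intronic summits. Besides plx-1 the best were syg-1, an immunoglobulin-type protein that places synapses, with none in replicate 1 and rank 252 in replicate 2, and ptp-3, a receptor tyrosine phosphatase of the LAR type, with ranks 3455 and 395. The unc-51 kinase gene, needed for axon growth, had 3 members, the best with none in replicate 1 and rank 5051 in replicate 2. All 3 were beyond rank 3000 of replicate 1 or missing there. The list held 30 members and 184 weaker summits with replicate 2 alone, and 24 and 192 with replicate 1 alone. In ranks 1 to 1000 of the pool it held 7 members and 225 weaker summits.

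Homeobox genes, the family of CEH-9, were near the average. Of 80 with a qualifying intron 4 held a member (5.00%, beside 3.69% of all genes). Their density was 24.7 members per Mb, beside 27.4 over all introns. The best was in ceh-43, the worm relative of Distal-less, at ranks 887 in replicate 1 and 5395 in replicate 2. In pax-3 the ranks were 26356 and 1059, in ceh-21 none and 2061, and in ttx-1, an Otx-type gene of thermosensory neurons, 19403 and 4008. None of the 4 was in the upper 3000 of both lists. Nuclear hormone receptor genes had 5 hosts of 227 (2.20%), led by nhr-1 with rank 618 in replicate 1 and none in replicate 2, then nhr-91, nhr-19 and nhr-46.

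Genes of excitable cells gave mixed counts, to be read beside 3.69% of all genes and 27.4 members per Mb over all introns. Synaptic genes were above the first value and below the second. Ion channel genes had 15 hosts of 247 (6.07%) and 28.8 members per Mb. After trpa-1 the best were unc-2, a voltage-gated calcium channel, at ranks 4717 in replicate 1 and 569 in replicate 2, slo-1, a calcium-activated potassium channel, with none and 2130, and lgc-46, a ligand-gated channel, at 2589 and 1841. Synaptic genes had 3 hosts of 63 (4.76%) and 11.6 members per Mb: unc-104, pkc-1, a protein kinase C with ranks 859 and 743, and unc-25. Genes for neuropeptide and amine receptors had 4 hosts of 130 (3.08%), npr-37, dop-4, dmsr-3 and sprr-2, of pooled ranks 1144 to 2871, and those for neuropeptides and insulins had none of 38, with 11 weaker summits.

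For the remaining lists the background was again 3.69% of all genes and 27.4 members per Mb. Muscle genes had 1 host of 48 (2.08%, 6.60 members per Mb), the tropomyosin gene lev-11, at ranks 524 in replicate 1 and 20001 in replicate 2. Cuticle collagens had 1 host of 39 (2.56%, 49.1 members per Mb, from a single member in little intron sequence), col-71, whose member was the last of all and had no summit in either replicate list. Chemoreceptor genes had 9 hosts of 954 (0.943%), led by srh-233, srt-52, sri-11 and srt-30, and 19.9 members per Mb. Genes of a list differ in intron length, so the share of genes and the density per Mb can order lists differently, as they did for chemoreceptors and muscle genes.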

How the data were processed

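ChIP-seq was measured in 2 replicates of 1 group. The authors deposited ce11 peak lists with a signal (peak height, comparable only within a list) and a −log10 q per peak. There is a relaxed list for each replicate, 1 for the pool of both and a reproducible list made from these, per the labels' file notes. The sources used here give no aligner, peak caller, version or reproducibility threshold. No read counts are given, so depth is unknown. Control libraries and ce10 lists were not analysed here. Nothing says that the replicates were separate cultures beyond the words biological replicate.

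Positions were set against Ensembl release 115. The host intron is the smallest one that holds the summit. Windows ran 75 bp to each side, and repeated words had 36 bases, an assumed read length. The members, the 11 gene lists and the 12 first motifs were chosen with earlier results of these data known. After reading the windows 3 motifs were added: TTAGGC, CCGGCAAA and the strict B box. The gene unc-3 was moved between lists. No test was run, since members were chosen on the measurement and there is 1 group. Genes were named as hosts of the 20 strongest and of all reproducible members, the 5 hosts with most members, up to 4 per list, ceh-9 and unc-119; other genes named were picked after their values were seen. The work used Python 3.11.15 and numpy 2.4.6. The motif search was tested on simulated sequences. The location classes and the repeated words were checked by direct search on samples of the real peaks and genome. Alternatives changed the rank limit, the TSS distance, the exon rule, the window, the replicate distance and the list used.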

Additional observations from a re-analysis of the deposited data

How the results depend on the processing

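A value counted as moved when a share left the 95% exact binomial interval of the main setting, or a median its order-statistic interval. A count moved when it changed by over 1.5 times. Of 150 alternative values 40 moved and 110 did not, and those below are of both kinds. GCGCGC without replicate 1, GAGAGA in ranks 1 to 1000 and the X shares given did not move. Neither did repeated words with the whole peak outside exons, median GC without replicate 1 or chromosome III without replicate 2. The order of members and weaker summits did turn in some cases. Without replicate 1 the members were no longer above the weaker summits for chromosome III (20.8% beside 20.9%), the strict B box (0.606% beside 0.616%) and GCGCGC (1.82% beside 1.87%). The same held for GAGAGA in ranks 1 to 1000 (7.74% beside 7.92%) and for GAGAGA and repeated words with 150 bp to each side (14.9% beside 15.0% and 24.6% beside 25.8%), and for repeated words with the whole peak outside exons (18.4% beside 21.4%). On X the members were above the weaker summits in ranks 1 to 1000 (14.2% beside 13.7%) and with the whole peak outside exons (14.5% beside 13.2%). The number of members was 155 in ranks 1 to 1000, 1096 in ranks 1 to 6000, 319 over 2 kb from a TSS and 337 with the whole peak outside exons. Under ranks 1 to 1000, over 2 kb and the whole peak, replicate 1 was strong at 75, 103 and 116 and replicate 2 at 120, 152 and 175. Both were strong at 27 members over 2 kb and at 31 with replicate summits within 50 bp, and 7 members over 2 kb were reproducible. Genes with at least 2 members numbered 7 (ranks 1 to 1000), 157 (ranks 1 to 6000) and 34 (over 2 kb). These counts follow from fewer or more peaks. Leaving out a replicate gave a median GC of 40.4% to 42.4% and a chromosome III share of 20.8% to 24.0%, and only 171 (without replicate 2) or 257 (without replicate 1) regions were shared with the members. In ranks 1 to 1000 the median GC was 45.0%, repeated words 24.5% and TAATTA or TAATTG 9.68%. With 150 bp to each side, where the window is longer, the cores were 21.2%. First introns were 26.5% over 500 bp, 17.2% over 2 kb and 31.5% with the whole peak, where the median intron was 3428 bp. Results on chromosome III, the added motifs and the gene lists were given alternatives after the data were seen. No replicate-strength count was computed with a replicate left out. No paired analysis was possible because the series has 1 group. Read depth was unknown, which limits how firmly any rank can be read.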
